A study of Mus musculus with 5 samples.

Results

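The common gamma chain cytokine receptors were described in CD4 T cells of the mouse colon with and without the calcineurin subunit Cnb1. The family was given as 8 genes, the cytokine gene Il2 and the receptor chain genes Il2rb, Il2rg, Il4ra, Il7r, Il9r, Il15ra and Il21r. Each gene was read from the probe set annotated with its symbol alone and with the highest mean over all arrays. Of the 8 genes, 7 were measured in this way, among 19937 genes in all, each with 1 such probe set. Il2rg, which encodes the shared chain itself, was not analysed here.

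The samples were cells sorted from the lamina propria of the colon by surface CD45, CD3 and CD4 and by low CD44, and each gave 1 Affymetrix array. The 3 conditional arrays came from mice labelled CD4cre/Cnb1flox, with floxed Cnb1 and CD4cre. The 2 control arrays came from mice labelled both WT and CD4neg/Cnb1flox, which by the second name carried floxed Cnb1 without Cre. Age was not given in the sources used here. A Cre driven by Cd4 is active from the double-positive stage of thymic development, so in the conditional mice it also acts in CD8 T cells. The study's question was whether Cnb1 restrains JAK/STAT signalling and Th1 genes. The series names 3 independent experiments with 3 to 5 mice per group, and the labels do not say whether an array held pooled mice. The spread between arrays, on which every p-value rests, may therefore be technical.

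Interleukins of this family bind receptors that contain the common gamma chain together with a private chain. The chains carry no enzyme of their own, and the bound kinases JAK1 and JAK3 phosphorylate STAT factors, mainly STAT5 for IL-2, IL-7, IL-9 and IL-15, STAT6 for IL-4 and STAT3 for IL-21. In T cells IL-7 supports survival, IL-2 and IL-15 drive growth and effector and regulatory differentiation, IL-4 drives Th2 differentiation, and IL-21 acts in help to B cells. Transcription of Il2 in stimulated T cells is the textbook output of calcineurin, which dephosphorylates NFAT so that it enters the nucleus. Calcineurin acts through Cnb1, its regulatory subunit.

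The promoters of Il2 and Il7r are shown because Il2 is the classical NFAT gene and Il7r had the largest difference of the family. Both are the 250 bases before the start site, on the strand of the gene, from RefSeq on GRCm38.p6. The Il2 window is chr3:37125955-37126204 on the minus strand and the Il7r window is chr15:9529877-9530126 on the minus strand. Capitals mark GGAAA, the core of an NFAT site, on either strand, and in Il7r also 1 match to TTCNNNGAA, the STAT palindrome.
Il2: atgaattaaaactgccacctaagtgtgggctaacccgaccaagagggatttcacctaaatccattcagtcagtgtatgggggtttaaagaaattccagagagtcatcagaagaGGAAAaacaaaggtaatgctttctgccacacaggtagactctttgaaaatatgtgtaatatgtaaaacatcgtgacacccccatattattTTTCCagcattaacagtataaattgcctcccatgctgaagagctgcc
Il7r: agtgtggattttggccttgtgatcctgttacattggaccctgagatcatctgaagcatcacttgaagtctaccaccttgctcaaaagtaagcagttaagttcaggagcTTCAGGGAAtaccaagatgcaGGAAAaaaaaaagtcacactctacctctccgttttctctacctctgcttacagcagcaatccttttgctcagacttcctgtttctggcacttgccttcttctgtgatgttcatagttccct

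The Il2 window held 2 matches to GGAAA, at -137 to -133 and, on the opposite strand, at -47 to -43 from the start site. The Il7r window held 1, at -121 to -117, and its STAT palindrome lay at -142 to -134, with no overlap between the motifs. GGAAA on either strand was found in 55.6% of 32851 RefSeq promoter windows of this length, and as many matches as in Il2 in 21.4%. TTCNNNGAA, which reads the same on both strands, was found in 7.02%. Of the 8 genes, 7 were in the promoter table. GGAAA matched 4 times in one and 0 times in the other of the Il15ra start sites, 1 time in Il4ra and in Il2rg, and 0 times in Il21r and Il9r. A match is a run of letters and does not show that a factor binds.

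The control arrays differed strongly from each other, and this touches every result. The mean log2 level of 10 T cell markers was 10.87 to 11.12 on the conditional arrays, 11.23 in control replicate 2 and 8.30 in control replicate 1. Control replicate 1 also had the highest means of the epithelial (10.15) and stromal and endothelial (10.77) markers. Cd3e (11.61 to 12.21) and Cd4 (11.44 to 11.86) were high in control replicate 2 and the conditional arrays, and at 9.45 and 9.26 in control replicate 1. They do not show that those arrays held T cells alone. The stromal gene Dcn was at 12.79, 12.51 and 11.90 on the conditional arrays and 12.80 in control replicate 2. The mean of the stromal and endothelial markers was lower there, at 8.64 to 9.56 and 9.22. Each gene is therefore given against each control array as well as against their mean. In these bulk samples fewer cells of a type and less RNA per cell cannot be told apart.

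None of the 7 genes passed an adjusted p of 0.05 (limma, Benjamini-Hochberg over all genes), where 83 genes, or 0.416%, passed among all 19937. Il7r and Il2rb had an unadjusted p under 0.05 and were higher, 2 of 7, against 8.59% of all genes. In 3 of the 7, Il7r, Il2rb and Il9r, every conditional array lay above both controls, against 17.4% of all genes. Every conditional array lay below both controls in 0 of 7, against 13.1%. The median difference of the 7 genes, conditional minus control on the log2 scale, was 0.33, and that of all genes was 0.03. With control replicate 1 as the only reference these medians were 0.84 and 0.09, and with control replicate 2 they were 0.09 and -0.02. The 10 T cell markers had a larger median difference, 1.12 (2.41 and -0.37 against control replicates 1 and 2). Of them 2 lay above both controls, 0 lay below both, and 0 passed the test.

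**Figure D1:**
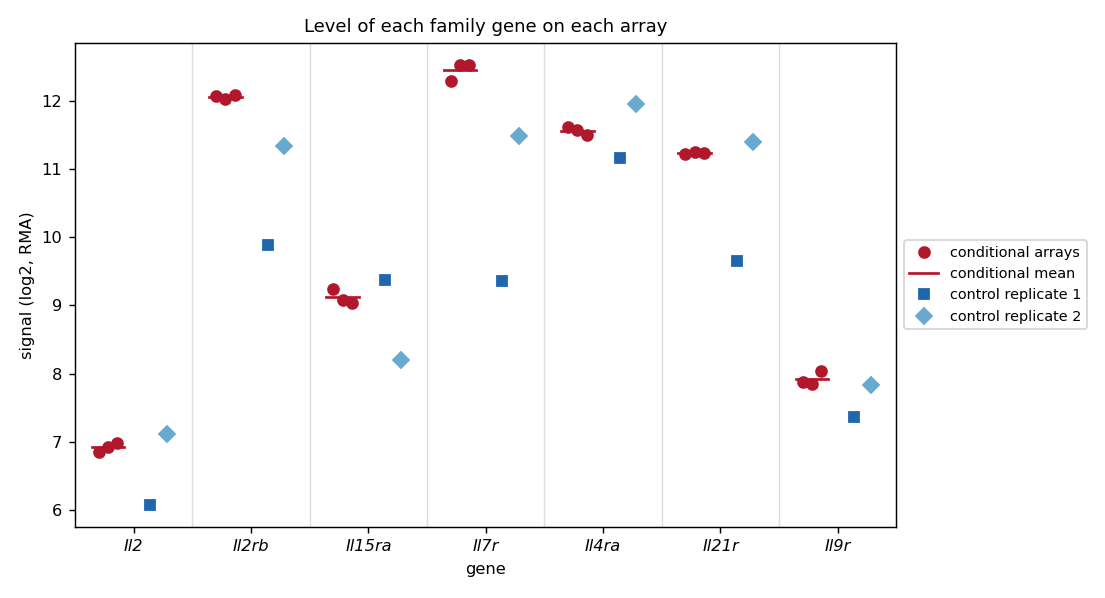
Level of the 7 measured genes (x axis) on each array, as log2 RMA signal (y axis). Red circles are the 3 conditional arrays with their mean as a line, the dark blue square is control replicate 1 and the light blue diamond control replicate 2. The conditional arrays of a gene lie within 0.23 of each other, while the controls of Il7r are 2.13 apart.

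Il7r encodes the IL-7 receptor alpha chain, which also serves the cytokine TSLP. Its log2 level was 12.30, 12.53 and 12.52 in conditional replicates 1, 2 and 3, and 9.36 and 11.49 in control replicates 1 and 2. The 3 conditional arrays lay close together above both controls. They exceeded the controls by 2.03 ± 0.621 (SE, n = 3 and 2), or 4.08-fold, with a 95% interval from 0.44 to 3.62 and an adjusted p of 0.249 (limma). The controls themselves lay 2.13 apart, more than the difference between the groups. Set against one control at a time, it was 3.09 for replicate 1 and 0.96 for replicate 2.

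Il2rb encodes the beta chain that IL-2 and IL-15 share. It was read at 12.07, 12.02 and 12.08 on the conditional arrays, against 9.89 in control replicate 1 and 11.34 in control replicate 2. The conditional arrays spanned 0.06 and stood above both controls. They differed from the controls by 1.44 ± 0.426 (SE), or 2.71-fold, with an interval from 0.35 to 2.53 (limma, adjusted p = 0.236). The gap between the controls was 1.45. Against the single controls the difference was 2.17 and 0.72.

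Il15ra encodes the chain that binds IL-15 with high affinity and presents it to neighbouring cells. Its levels were 9.24, 9.08 and 9.03 on the conditional arrays, 9.37 in control replicate 1 and 8.20 in control replicate 2. It was the 1 gene of the 7 whose higher control was replicate 1, and the conditional arrays fell between the controls. The difference of 0.33 ± 0.353 (SE; limma, adjusted p = 0.742) joined -0.25 against control replicate 1 with 0.92 against control replicate 2.

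Il21r encodes the private chain of the IL-21 receptor. The conditional arrays read 11.23, 11.25 and 11.24, a span of 0.02, and the controls 9.66 and 11.39. The conditional arrays lay below control replicate 2 and far above control replicate 1. The groups differed by 0.71 ± 0.505 (SE; limma, adjusted p = 0.585), from 1.58 against control replicate 1 to -0.15 against control replicate 2.

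Il4ra encodes the chain that binds IL-4 and serves the type I and type II IL-4 receptors. It was at 11.62, 11.57 and 11.49 on the conditional arrays and at 11.15 and 11.95 in control replicates 1 and 2. The conditional arrays lay between the controls, so the groups overlapped. The group means differed by 0.01 ± 0.248 (SE; limma, adjusted p = 0.993), with a 95% interval from -0.63 to 0.64, which leaves room for a difference in either direction.

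Il9r, the IL-9 receptor chain gene, read 7.88, 7.85 and 8.04 on the conditional arrays and 7.36 and 7.84 in the controls. All conditional arrays were above both controls, but conditional replicate 2 exceeded control replicate 2 only in the second decimal. It differed by 0.33 ± 0.178 (SE; limma, adjusted p = 0.476), with 0.57 and 0.09 against the single controls.

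Il2, the cytokine gene whose promoter is printed above, was at 6.85, 6.93 and 6.98 on the conditional arrays, 6.08 in control replicate 1 and 7.11 in control replicate 2. The conditional arrays lay between the controls. Il2 differed by 0.33 ± 0.313 (SE; limma, adjusted p = 0.709), from 0.84 against control replicate 1 to -0.19 against control replicate 2. The 95% interval, from -0.47 to 1.13, covers a lower and a higher level alike. Among all genes the mean of Il2 lay at the 37.0 percentile and that of Il9r at the 56.5 percentile, with no call against background, so small differences of these genes may be compressed.

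**Figure D2:**
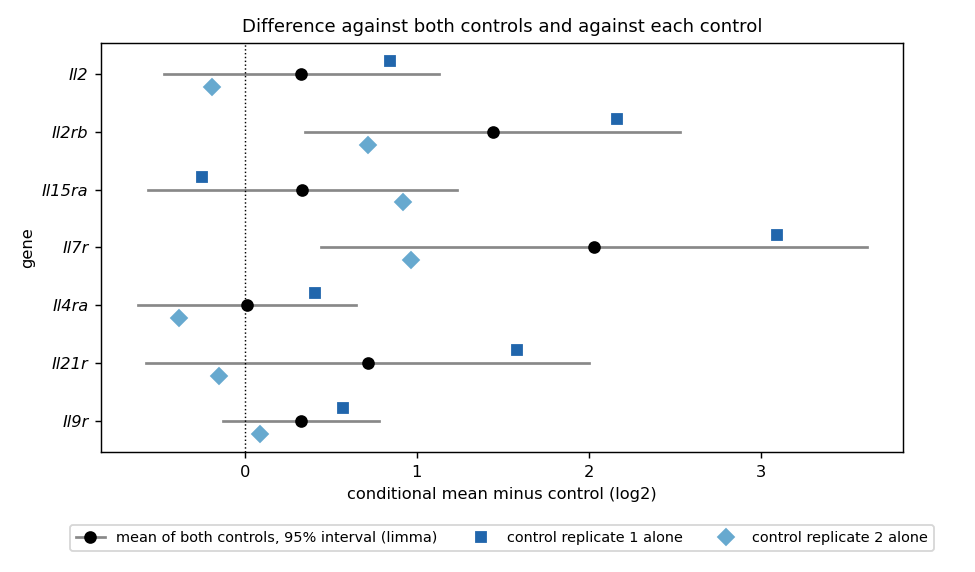
Conditional mean minus control on the log2 scale (x axis) for each of the 7 genes (y axis). Black circles with grey lines are the difference from the mean of both controls with its 95% limma interval, dark blue squares the difference from control replicate 1 alone and light blue diamonds from control replicate 2 alone. The diamonds of Il7r (0.96), Il15ra (0.92) and Il2rb (0.72) lie clearly to the right of 0 and those of Il4ra (-0.39), Il2 (-0.19) and Il21r (-0.15) to the left.

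Fits with 1 control left out assume that the remaining control varies like the conditional arrays. The measured spread contradicts this, as in all 7 genes the SD was larger between the controls. For Il7r it was 0.133 on the conditional arrays and 1.51 in the controls. It was 0.032 and 1.03 for Il2rb, and 0.106 and 0.825 for Il15ra. The main fit also takes an equal spread in both groups, though the more variable group held fewer arrays. Its SEs and p-values for the family genes may therefore be too small and its intervals too narrow, those of Il7r and Il2rb included. The p-values and counts of the fits with 1 control left out cannot decide whether a gene differs. They are listed without a conclusion, here and below. Against control replicate 2 alone, 3 of the 7 genes passed (limma, adjusted p = 0.0237 for Il7r, 0.0292 for Il2rb and 0.0223 for Il15ra), all higher, against 6.1% of all genes. Against control replicate 1 alone, 5 of 7 passed, again all higher, against 27.5% of all genes. These were Il2, Il2rb, Il7r, Il9r and Il21r, with adjusted p between 0.00100 and 0.0291. Both fits share all conditional arrays. With any 1 conditional array omitted, 0 of all genes passed, and 1417 to 2037 had an unadjusted p under 0.05 (limma).

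To set the genes beside the T cell content of each array, the mean of the 10 T cell markers was subtracted from every gene. On this scale Il7r was at 1.43, 1.57 and 1.41 on the conditional arrays and at 1.05 and 0.25 in control replicates 1 and 2. It stayed above both controls, the 1 gene of 7 to do so, against 0.236% of all genes. Il2rb was at 1.20, 1.06 and 0.96 on the conditional arrays and at 1.59 and 0.11 in the controls, so its conditional arrays fell between them. The subtraction moved the median difference of all genes by a large step, to -1.18. Against that median the difference of Il7r, 0.82, and of Il2rb, 0.23, were the highest of the family, and neither passed (limma, adjusted p = 0.534 and 0.852). This test cannot decide for either gene. The subtracted mean itself was 8.30 and 11.23 in the controls, the SE was 1.16 for every family gene, and 0 of all genes passed.

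**Figure D3:**
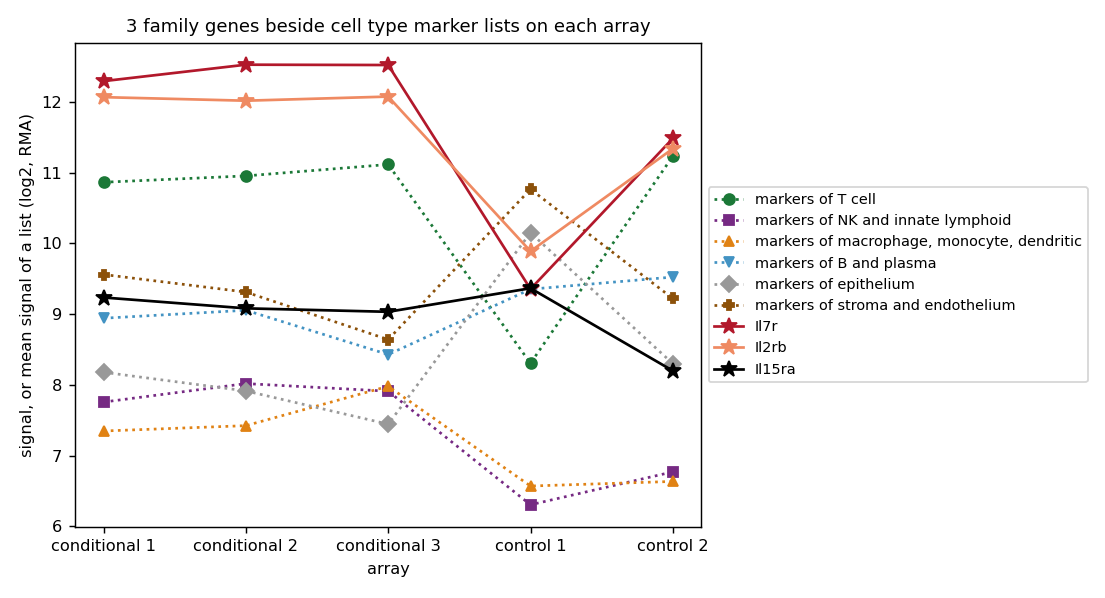
Level of Il7r, Il2rb and Il15ra (stars, solid lines) and mean level of 6 cell type marker lists (other symbols, dotted lines) on each array (x axis), all as log2 RMA signal (y axis). Lines only join the symbols of one series. In control replicate 1 the T cell mean is 8.30 and the epithelial and stromal means are 10.15 and 10.77, the highest of the 5 arrays, and Il7r and Il2rb are lowest there.

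Several of these receptors are also made by other cells of the gut, which the gate on CD45, CD3 and CD4 is meant to remove. Natural killer and innate lymphoid cells carry Il7r or Il2rb. The 8 genes listed as their markers are not all limited to these cells. Their mean was 7.76 to 8.02 on the conditional arrays, 6.30 in control replicate 1 and 6.77 in control replicate 2. Of these 8 markers 5 lay above both controls, against 17.4% of all genes, and 1 passed the test, against 0.416%. The 5 were Klrd1 (3.24; limma, adjusted p = 0.0501), Kit (2.17), Tyrobp (1.88; limma, adjusted p = 0.0269), Klrk1 (1.72) and Fcer1g (1.71), and the 1 that passed was Tyrobp, a signalling adaptor gene. The other 3, Eomes, Klrb1c and Ncr1, overlapped between the groups and differed by 0.08, 0.05 and 0.03. The part of these cells in the levels of Il7r and Il2rb was not tested.

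Myeloid markers averaged 7.35 to 7.98 on the conditional arrays and 6.57 and 6.63 in the controls, with 7 of 10 above both controls (17.4% of all genes). None passed the test, and 6 were higher at an unadjusted p under 0.05 (limma), against 8.59% of all genes. Macrophages and dendritic cells make Il15ra. B and plasma cell markers averaged 8.43 to 9.06 on the conditional arrays and 9.35 and 9.52 in the controls, with 4 of 7 below both controls (13.1% of all genes). Epithelial markers averaged 7.44 to 8.18 on the conditional arrays, and 10.15 and 8.30 in the controls. Of them 5 of 10 were below both controls (13.1% of all genes) and 2 past the test (0.416% of all genes). For stromal and endothelial markers the means were 8.64 to 9.56, against 10.77 and 9.22, with 4 of 9 below both controls (13.1% of all genes). No marker is at 0 on this scale, and the part of these cells in the level of Il15ra was not tested.

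Of the other 5 cytokines of the family, 0 passed the test, 0 had an unadjusted p under 0.05 (limma), and their median difference was -0.32 (0.26 and 0.04 against the single controls). Il9, a product of Th9 and mast cells, was at 6.47, 6.24 and 6.48 on the conditional arrays and 6.08 and 6.12 in the controls (0.30 ± 0.125, SE; limma, adjusted p = 0.378). Il15 and Il7, which stromal, epithelial and myeloid cells make, were highest in control replicate 1, at 7.85 and 6.14. On the conditional arrays Il15 ranged from 5.92 to 6.53 and Il7 from 5.08 to 5.45. Il21, a cytokine of follicular helper cells, stood out in control replicate 2 at 7.85, where the conditional arrays read 5.79 to 6.20 and control replicate 1 read 5.67. Il4, the Th2 cytokine, differed by -0.12 ± 0.270 (SE; limma, adjusted p = 0.897).

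The 4 partner chains had a median difference of 0.28, and 0 passed. At an unadjusted p under 0.05 (limma) 1 was higher, against 8.59% of all genes. Il2ra, the high-affinity chain of the IL-2 receptor, was at 11.87, 11.86 and 11.66 on the conditional arrays and at 8.93 and 10.87 in control replicates 1 and 2. All conditional arrays lay above both controls, with a difference of 1.89 ± 0.567 (SE; limma, adjusted p = 0.240), and of 0.93 against control replicate 2 alone. Crlf2, the TSLP receptor chain that pairs with Il7r, was above both controls (9.35 to 9.41 against 8.47 and 9.16). Il13ra1, which pairs with Il4ra in the type II receptor, overlapped, at 7.51 to 8.15 on the conditional arrays and 9.47 and 7.27 in the controls. Il13ra2, a decoy for IL-13, differed by -0.01 at a low level.

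The kinases and STAT factors were given as 7 genes, of which 5 were measured and 2 were not analysed here. None passed the test, 3 were higher at an unadjusted p under 0.05 (limma), against 8.59% of all genes, and 4 of 5 lay above both controls, against 17.4%. The median difference was 0.57. Stat5b was at 11.47, 11.54 and 11.55 on the conditional arrays and 10.07 and 10.64 in the controls. Stat5a read 11.60, 11.56 and 11.56 against 10.09 and 10.77. Both STAT5 genes, the main transducers of the family, were thus higher on every conditional array, by 1.16 ± 0.190 (SE; limma, adjusted p = 0.0938) for Stat5b and 1.14 ± 0.216 (SE; limma, adjusted p = 0.119) for Stat5a. The 2 genes are close paralogs whose probes may share signal.

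Stat3, the transducer of IL-21, was at 12.33, 12.28 and 12.18 against 11.70 and 11.68. Its controls nearly coincided, and its difference of 0.57 ± 0.106 (SE; limma, adjusted p = 0.116) was similar against each control, at 0.56 and 0.58. Stat6, which serves IL-4, lay above both controls by 0.26 ± 0.120 (SE; limma, adjusted p = 0.418), and Jak1, the kinase of the private chains, overlapped with a difference of 0.09.

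**Figure D4:**
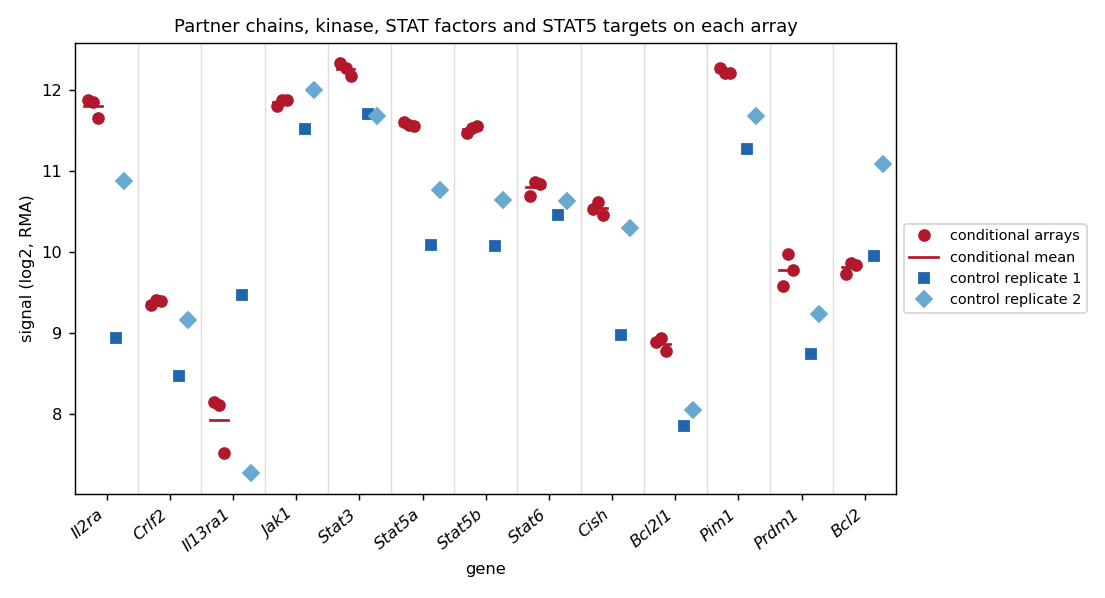
Level of partner chains, a kinase, STAT factors and selected STAT5 targets (x axis) on each array, as log2 RMA signal (y axis), with symbols for conditional arrays and their mean, control replicate 1 and control replicate 2. Stat5a, Stat5b and Il2ra lie above both controls on every conditional array, and Bcl2 below both. The targets shown are the 3 of smallest p in their list (limma), and Cish and Bcl2, picked after their values were seen. Other targets are left out, among them Id2 (higher) and Ccnd3, Mcl1 and Myc (lower). Of all 18 targets, 6 lay above both controls and 5 below both.

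Of 18 targets and feedback genes of STAT5 signalling, 0 passed, and their median difference was 0.17. At an unadjusted p under 0.05 (limma) 4 were higher and 3 lower, against 1713 and 1179 of all 19937 genes. Above both controls lay 6 and below both 5, against 17.4% and 13.1% of all genes. Bcl6, listed as a gene that gamma chain cytokines lower, was among those above, by 0.07. It was counted there and in the median like the other genes. Bcl2l1, which encodes the survival protein BCL-XL, was at 8.89, 8.93 and 8.78 on the conditional arrays and 7.85 and 8.05 in the controls. This difference of 0.92 ± 0.121 (SE; limma, adjusted p = 0.0672) was the closest of the list to the threshold. Pim1, a survival kinase gene, differed by 0.76 ± 0.152 (SE; limma, adjusted p = 0.130) and Prdm1, which encodes BLIMP-1, by 0.79 ± 0.205 (SE; limma, adjusted p = 0.193). The remaining higher gene at an unadjusted p under 0.05 was Id2 (0.70; limma, adjusted p = 0.194). The 3 lower were Ccnd3 (-0.79; limma, adjusted p = 0.249), Mcl1 (-0.38, 0.266) and Myc (-0.34, 0.316), each below both controls. Cish and Bcl2 were picked after their values were seen. Cish, a feedback inhibitor that STAT5 induces, was at 10.54, 10.62 and 10.46 against 8.97 and 10.29, and Bcl2, the survival gene that IL-7 maintains, at 9.73, 9.86 and 9.84 against 9.95 and 11.08. Cish thus lay above both controls and Bcl2 below both.

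Regulators of Il7r and genes that accompany it in resting T cells were read next. Of 11 measured, 0 passed, 1 lay above both controls and 2 below both, against 17.4% and 13.1% of all genes. At an unadjusted p under 0.05 (limma) 1 was lower, against 1179 of all 19937 genes. The median difference was 0.03 (0.96 and -0.36 against control replicates 1 and 2). Foxo1, an activator of Il7r, was at 11.38, 11.41 and 11.43 against 10.24 and 11.28, a difference of 0.64 ± 0.315 (SE; limma, adjusted p = 0.436). Klf2, a quiescence factor that FOXO1 induces, was at 9.18 to 9.25 on the conditional arrays, 9.35 in control replicate 1 and 11.27 in control replicate 2. Its conditional arrays lay below both controls, at -1.09 ± 0.558 (SE; limma, adjusted p = 0.455). Foxo3 also lay below both, at -0.46 ± 0.119 (SE; limma, adjusted p = 0.194).

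Cytokine and ligand genes that, like Il2, need NFAT in stimulated T cells were given as 9 genes. None passed, and 4 were higher at an unadjusted p under 0.05 (limma), against 8.59% of all genes. A positive difference was found in 9 of 9, against 55.9% of all genes, and 4 lay above both controls, against 17.4%. Against control replicate 2 alone 7 of 9 were positive, with Cd40lg at -1.51 and Il17a at -0.19, against 46.1% of all genes. The list median was 0.86 (1.05 and 0.15 against the single controls). Csf2, the GM-CSF gene, was at 7.57, 7.37 and 7.58 on the conditional arrays and 6.46 and 6.64 in the controls, a difference of 0.96 ± 0.130 (SE; limma, adjusted p = 0.0697). Tnf differed by 1.40 ± 0.469 (SE; limma, adjusted p = 0.282) and Il5 by 0.56 ± 0.162 (SE; limma, adjusted p = 0.231), both above both controls. Il2 itself overlapped, as given above.

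Among 22 cytokine receptor chains outside the family, 1 passed, Il12rb2 of the IL-12 receptor (3.94, limma, adjusted p = 0.0112), against 0.416% of all genes, and 8 lay above and 3 below both controls, against 17.4% and 13.1%. Their median difference was 0.23 (0.56 and 0.11 against the single controls), beside 0.33 (0.84 and 0.09) for the gamma chain family. No test of the difference between these lists was made.

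Profiles over the 5 arrays were compared by the root mean square difference of log2 levels, each centred on its own mean, for the family genes with a range of at least 1 and 18688 other named genes. Il7r was nearest to Cysltr2 (0.120), Cpm (0.145) and Cd7 (0.162), and Il2rb to Icos (0.0561), Lpxn (0.0611) and Myo1g (0.0698). Icos, a costimulatory receptor gene of T cells, was at 12.44, 12.46 and 12.49 on the conditional arrays and 10.17 and 11.69 in the controls. The nearest genes of Il21r were Ccdc88c (0.0299), H2-Q5 (0.0385) and Rhof (0.0516), those of Il2 were Srpk1 (0.0313), Il17ra (0.0325) and Znrf2 (0.0342), and those of Il15ra were Raph1 (0.0483), Gna12 (0.0607) and Lama5 (0.0815). Over all 7 family genes, without the limit on range, the closest profiles were Il2 and Il9r (0.181), and the farthest were Il7r and Il15ra (1.34).

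Some family genes lie next to each other in the order of protein-coding genes of GRCm38.p6. Il4ra and Il21r are neighbours on chromosome 7, with differences of 0.01 and 0.71 and controls on both sides of the conditional arrays for each. Il15ra and Il2ra are neighbours on chromosome 2, and there Il2ra was above both controls and Il15ra between them. Il2 and Il21, neighbours on chromosome 3, both had their highest level in control replicate 2.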

How the data were processed

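Total RNA was amplified with a whole-transcript kit and hybridised to 5 arrays, per the labels' protocols. The authors deposited log2 signals made with RMA in oligo, per the submitters' processing notes. For the tool versions and the genome build nothing is stated in the sources used here. RMA scales the arrays toward equal distributions and compresses low signals, so a shift common to all genes cannot be seen. The deposited values were not fully equal, with medians of 7.12 in control replicate 1 and 7.20 to 7.23 on the other arrays. An array has no read depth, and precision is limited by the number of arrays.

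Of 34760 probe sets, 21640 had 1 gene symbol, 1321 several and 11799 none in the platform annotation. Symbols were looked up by gene number in a RefSeq gene table (21553 found, 0 changed). No 2 arrays were identical (0 pairs). The whole table of 19937 genes was fitted with limma 3.58.1 (R 4.3.3), lmFit and eBayes, with no covariate, 3 residual degrees of freedom and a prior of 2.10. The threshold was an adjusted p of 0.05.

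The family, lists and tests were chosen with earlier results of these data known. Named were the family, all measured ligands, partner chains, kinases and STATs, and of other lists the genes past the threshold or otherwise the 3 of smallest p. Of the STAT5 targets, all genes at an unadjusted p under 0.05 were named, and Cish, Bcl2 and Bcl6 besides. The 3 nearest profiles of each family gene with a range of at least 1 and neighbouring genes were named too. Alternatives were each array left out, the replicate number as a block, other scaling, other probe set rules, filters on dim genes, array weights, a variance trend and subtraction of the T cell marker mean. The fit was tested on simulated independent genes: 200 of 19937 genes were changed in each of 20 runs. For conditional against control it found 0.1% of changes of 0.5 on the log2 scale, 17% of those of 1, 74.1% of those of 2 and 93.1% of those of 4. False calls made up 4.61% in the simulation. In the data many genes move together between the controls, as the T cell markers do. These rates therefore need not hold for the 83 genes past the threshold.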

Additional observations from a re-analysis of the deposited data

How the results depend on the processing

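Under 10 alternatives other than leaving out an array, 0 family genes passed in each. In 1 of these, the replicate block, conditional replicate 3 has a block of its own and adds nothing to the differences. The other probe set rules, the filters on dim genes and the variance trend could not change the differences of the family genes kept. Each has 1 probe set, and the filters and the trend touch only the error and the adjusted p. Il7r stayed between 0.82 and 2.12 and Il2rb between 0.23 and 1.53. All genes past the threshold numbered 83, and 48 after further quantile normalization, 13 with array weights and 0 after subtraction of the T cell marker mean (771 at an unadjusted p under 0.05, limma). That subtraction, which lowers every gene of the conditional arrays against control replicate 1, gave a family median of -0.88 and turned Il2 (-0.88), Il4ra (-1.20), Il9r (-0.88), Il15ra (-0.88) and Il21r (-0.50). List medians there were -1.53 for ligands, -0.93 for partner chains, -0.64 for kinases and STATs, -1.04 for STAT5 targets, -1.18 for Il7r regulators, -0.35 for calcineurin-dependent cytokines and -0.98 for other receptor chains. Il4ra, near 0, was at -0.021 with array weights. The median of ligands was -0.25 with the replicate block, -0.23 with median centring, -0.44 without genes under the lower quartile level and -0.44 with array weights. Median centring gave 0.37 for partner chains, 0.66 for kinases and STATs and 0.33 for other receptor chains, and both filters on dim genes gave 0.56 for partner chains, from fewer genes. The cause of these shifts was not tested.

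Leaving out 1 array gave between 0 and 5474 genes past the threshold, 0 to 5 of them in the family, and a family median from 0.088 to 0.84. Differences ranged from -0.19 to 0.84 for Il2, -0.39 to 0.41 for Il4ra (-0.018 without conditional replicate 1), -0.25 to 0.92 for Il15ra and -0.15 to 1.58 for Il21r, and their signs turned with the control kept. List medians ranged from -0.39 to 0.26 for ligands, 0.27 to 0.44 for partner chains, 0.54 to 0.61 for kinases and STATs, -0.070 to 0.87 for STAT5 targets, -0.36 to 0.96 for Il7r regulators, 0.15 to 1.05 for calcineurin-dependent cytokines and 0.11 to 0.56 for other receptor chains.

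With the replicate block 69 genes passed, and 0 in the family, with Il7r at 1.99 and Il2rb at 1.43. Deviations from the group means correlated across genes at 0.40 for arrays numbered 1 and -0.29 for arrays numbered 2. The 2 controls deviate from their mean by equal and opposite amounts. The value for arrays numbered 2 is thus that of conditional replicate 2 with control replicate 1, with its sign turned. These correlations therefore cannot decide on pairing. Only 2 numbers are shared, and the numbers are not taken to pair the arrays. Il2 and all ligands fall out under the filter at the median level. With 3 and 2 arrays, changes under about 1 on the log2 scale were rarely recovered in simulation.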
